A study of Sus scrofa with 96 samples.

Results

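Articular cartilage and synovium were compared within the 12 contralateral control knees (CON) of Yucatan minipigs, so 24 of the 96 libraries of the series entered the comparison. The members were the CON cartilage and CON synovium libraries, paired by CON number, since the study's list of samples gives both libraries of a number to the same knee. The animals were adolescent at surgery, and each had undergone unilateral transection of the anterior cruciate ligament in its other knee, left untreated (ACLT), reconstructed (RECON) or repaired with an extracellular matrix scaffold (REPAIR). All tissue was taken at 52 weeks. The CON knees were therefore not operated on themselves but came from operated animals, and no knee came from an animal without surgery. Cartilage was separated from bone biopsies of the medial femoral condyle, frozen and later broken up with a drill bit, whereas synovium was homogenised in a bead instrument at collection. Dissection and homogenisation thus differed wherever the tissue differed, and their effects cannot be told apart from those of tissue.

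Articular cartilage is a tissue without blood vessels in which scattered chondrocytes maintain a matrix built mainly of collagen fibrils and large proteoglycans. Synovium lines the joint cavity. Its lining holds fibroblast-like cells, which secrete hyaluronan and lubricating proteins, and macrophage-like cells, and the layer beneath them holds vessels, fat and connective tissue. A piece of synovium is thus a mixture of many cell types and a piece of cartilage is dominated by one. In whole tissue, fewer cells of a type and less RNA per cell cannot be told apart.

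RNA depleted of ribosomal RNA was sequenced, and the measurements were estimated counts of 46295 Ensembl transcripts per library. No table at hand paired these transcript identifiers with genes, so transcripts are given by identifier, length and level, no gene is named, and the tissue labels could not be checked against cell type markers. The 12 cartilage libraries held 11491853 to 18365738 counts each, and the 12 synovium libraries 7483043 to 17481479. Cartilage had the larger total in 9 of 12 knees (p = 0.0674, two-sided exact permutation test within knees). After 15929 transcripts with few counts and 6243 with none were set aside, 24123 transcripts were tested, and they held between 98.7% and 99.6% of the counts of each library.

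No library fell with the other tissue. The overlap of 2 libraries, defined as the share of counts that both assign to the same transcripts, ran from 73.8% to 90.6% between 2 cartilage libraries and from 77.3% to 89.7% between 2 synovium libraries. Between the cartilage and the synovium of 1 knee it ran only from 46.4% to 58.6%, with a median of 52.4%. Between cartilage and synovium of different knees it ran from 46.3% to 59.5%, with a median of 52.8%. In counts, the median for tissues of 1 knee was thus not above that for different knees. In TPM, a unit per effective length used below, the order was reversed, with medians of 59.5% for 1 knee and 58.8% for different knees. The most uneven knees were CON 1 and CON 11. In CON 11 11.7% of the called transcripts described next ran against the fitted direction, and in CON 1 8.96% did, against 3.35% to 6.11% in the other knees.

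The tissue difference was broad. At an adjusted p-value under 0.05 in edgeR's quasi-likelihood test with the knee as a block (Benjamini-Hochberg adjustment), 12252 transcripts differed, which is 50.8% of those tested. Of these, 5851 (24.3%) had the higher level in cartilage and 6401 (26.5%) in synovium. This near balance depended on the scaling. The main fit used TMM, which assumes that most transcripts do not differ between libraries, and its factors, 0.709 to 0.968 in cartilage, did not overlap those in synovium, which were 1.01 to 1.30. With library totals alone, the median log2 fold change of all tested transcripts (cartilage over synovium) moved from -0.01 to -0.54, and 2600 transcripts were called higher in cartilage against 12494 higher in synovium. The share of calls higher in cartilage thus went from 47.8% to 17.2%. Directions given below are relative to the TMM scale.

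Most of the differences were moderate. Over all tested transcripts the median absolute log2 fold change was 0.56, and over the called ones it was 1.05. Called transcripts higher in cartilage had a median of 0.88, a 1.84-fold difference, and those higher in synovium a median of 1.28, a 2.42-fold difference. Of all tested transcripts, 12346 (51.2%) had a fitted difference under 1.5-fold. At the other end, 352 called transcripts were over 32-fold higher in cartilage and 895 over 32-fold higher in synovium. The fitted differences exceeded 256-fold for 114 and 194 transcripts.

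Synovium held more of the large differences. When the test asked for more than a 2-fold difference, 4447 transcripts passed (18.4% of those tested), 1662 (6.89%) toward cartilage and 2785 (11.5%) toward synovium. With more than 8-fold as the requirement, 1479 passed (6.13%), 439 (1.82%) toward cartilage and 1040 (4.31%) toward synovium. Cartilage therefore held 47.8%, 37.4% and 29.7% of the calls as the required fold grew. Without the scaling by TMM the share in cartilage was 17.2%, 20.4% and 21.1% at the same steps, so synovium held most of the large differences on both scales. In 79 of the tested transcripts every library of 1 tissue was at 0 counts, and the fitted fold of such a transcript has no meaning beyond its direction. Of the transcripts past the 8-fold test, 22 higher in cartilage and 30 higher in synovium were of this kind. With these transcripts set at the fold that 3 counts over the 12 libraries would give, the medians of both lists were unchanged at 6.01 (cartilage) and 6.28 (synovium) on the log2 scale.

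The called transcripts were also counted by the number of knees that shared their direction. Since the test was made on the same knees, these counts describe the calls and do not support them. Of the transcripts called higher in cartilage, 3067 (52.4%) were higher there in 12 of 12 knees and 5474 (93.6%) in at least 10. Of those called higher in synovium, 3888 (60.7%) were higher there in all 12 and 6051 (94.5%) in at least 10. Over all 24123 tested transcripts, 29.0% had 1 direction in 12 of 12 knees and 53.4% in at least 10, and over those not called the share in at least 10 was 11.3%. For transcripts past the 8-fold test the direction held in 12 of 12 knees in 416 of 439 and in 990 of 1040. A stricter view asks that the 12 libraries of 1 tissue all lie above the 12 of the other. On TMM-scaled counts per 1000000 counts (CPM), 1753 transcripts did so in cartilage and 2550 in synovium, which together are 17.8% of those tested, a share close to the 18.4% that passed the 2-fold test.

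While more transcripts were strongly higher in synovium, the reads of the difference were concentrated in cartilage. The called transcripts over 32-fold higher in cartilage, 352 in number, took a median of 29.8% of the counts of a cartilage library (range 20.4% to 38.3%) and 0.128% of those of a synovium library. The 895 transcripts over 32-fold higher in synovium took a median of 5.55% of synovium counts (range 4.72% to 6.55%) and 0.0480% of cartilage counts. In between, the 2 tissues were closer. Transcripts from 8 to 32-fold higher took 6.32% of counts in cartilage (431 transcripts) and 5.94% in synovium (777 transcripts). The class from 2 to 8-fold took 12.6% in cartilage (1826 transcripts) and 19.5% in synovium (2082 transcripts). The class under 2-fold held the most transcripts, 3242 higher in cartilage and 2647 higher in synovium. Those 3242 took 15.1% of cartilage counts and 15.0% of synovium counts. Their summed plain share was thus nearly the same in both tissues, although each was called higher in cartilage on the TMM scale. The 2647 took 13.4% of synovium counts and 6.41% of cartilage counts, so as a sum they also differed in plain shares. The plain shares of single transcripts of this class were not compared.

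**Figure D1:**
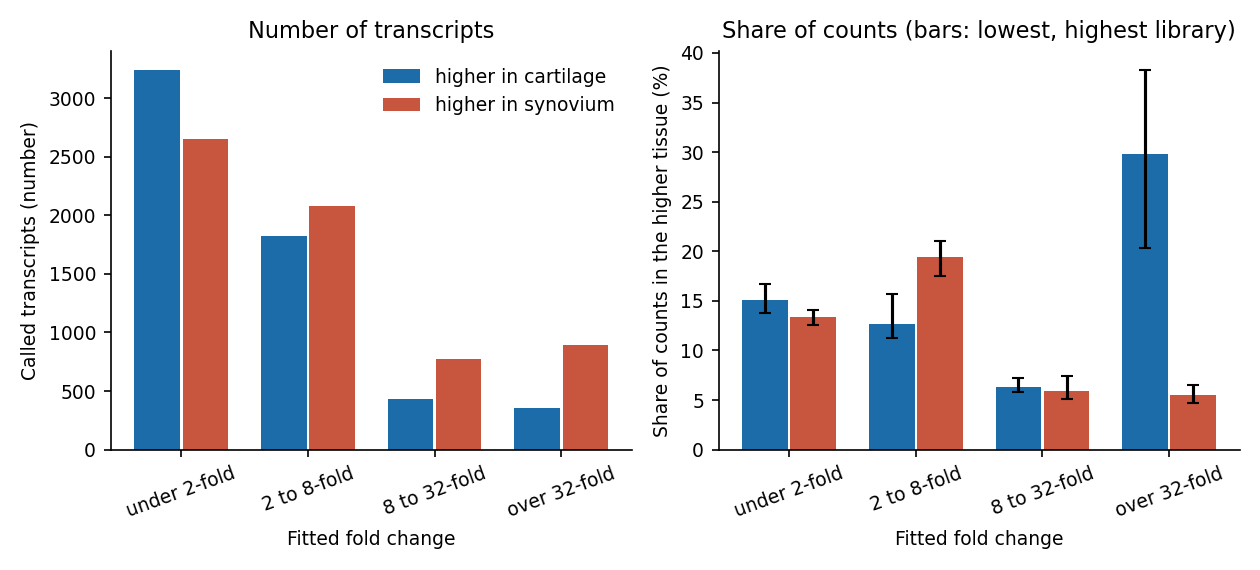
Called transcripts of the 12 CON knees by fitted fold change, with their number on the left and their share of counts in the tissue where they are higher on the right (bars at the median of the 12 libraries, lines from the lowest to the highest library). Over 32-fold, synovium has 895 transcripts and cartilage 352, but these take 5.55% and 29.8% of the counts.

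The same held for the transcripts past the 8-fold test. The 439 higher in cartilage took between 24.5% and 41.9% of the counts of each cartilage library, lowest in CON 11 and highest in CON 10, and between 0.313% and 0.708% in each synovium library, highest in CON 11. The 1040 higher in synovium took between 7.06% and 9.25% in each synovium library, lowest in CON 11 and highest in CON 10, and between 0.123% and 0.245% in each cartilage library, highest in CON 12. These values describe lists chosen on the same libraries and carry no test. Per effective length, in transcripts per 1000000 transcripts (TPM), the lists took 19.4% to 29.1% in cartilage and 7.09% to 10.1% in synovium.

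The mean compositions of the 2 tissues differed by 43.9% of the counts, meaning that this share would have to move between transcripts to turn one into the other. On the cartilage side, 5 transcripts made up the first 50% of this difference, and on the synovium side 281 did. The leading 10 transcripts made up 60.5% of the cartilage side and 21.3% of the synovium side. In TPM, where long transcripts do not weigh more, 37.6% was displaced, with 12 transcripts for the first 50% on the cartilage side and 168 on the synovium side. The contrast between few and many was thus smaller per length but of the same direction.

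The leading transcripts of the cartilage side ranged from near absence in synovium to abundance in both tissues. Of the first 10 by difference in CPM, 9 were called, 7 passed the 8-fold test, and in 7 the libraries of the 2 tissues did not overlap. The 10 were ranked on these same libraries, so these counts are a description only. Over all tested transcripts, 50.8% were called, 6.13% passed the 8-fold test and 17.8% did not overlap on TMM-scaled CPM. At 1000 CPM or more, 86.7% were called and 36.7% passed the 8-fold test. The median levels of the 10 in cartilage ran from 6718 to 113720 CPM, and those in synovium were under 100 CPM for 4 of the 10. The second in order, a transcript of 3022 bases, lay between 42139 and 86602 CPM in cartilage, and in synovium its median was 3.84 CPM with a highest value of 412 in CON 11. The third, of 4364 bases, lay between 14760 and 34149 CPM in cartilage and between 7.61 and 111 CPM in synovium. The fourth, of 7929 bases, had 8875 to 14246 CPM in cartilage, and in synovium a median of 1.59 CPM with a highest value of 126, again in CON 11. The ninth, of 1567 bases, did not pass the test at all (log2 fold change 0.93, adjusted p = 0.221 from edgeR). Its levels spanned 7020 to 90511 CPM among cartilage libraries and 2800 to 50837 CPM among synovium libraries, so that the knees varied more than the tissues differed.

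The leading transcripts of the synovium side were mostly abundant in both tissues. Of the first 10, 8 were called and 1 passed the 8-fold test. In 6 the libraries did not overlap. This list too was ranked on the same libraries, and the shares over all tested transcripts given above apply to it as well. The median absolute log2 fold change of the 10 was 1.89, against 5.43 for the 10 of the cartilage side. The second in order, of 8166 bases, had 24485 to 71688 CPM in synovium and 10572 to 46253 CPM in cartilage and did not pass the test (log2 fold change -0.55, adjusted p = 0.102 from edgeR). The fourth, of 1545 bases, had 5894 to 7541 CPM in synovium and 1384 to 2404 CPM in cartilage (adjusted p = 8.92e-08 from edgeR).

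Single libraries stood out in some of these 10. The third in order, of 5171 bases, had 9193 CPM in the cartilage of CON 1, against 24.6 to 2306 CPM in the other cartilage libraries and 6980 to 25734 CPM in synovium. The fifth, of 4701 bases, had 5217 CPM in the cartilage of CON 1 and at most 1319 in the other cartilage libraries. The sixth, of 5754 bases, had 10731 CPM in the cartilage of CON 1, above its value of 5760 in the synovium of that knee, and at most 2783 in the other cartilage libraries. Its synovium values ran from 1402 CPM to 21164 in CON 11, where the third and the fifth were also at their highest. The tenth, of 6369 bases, had 276 CPM in the cartilage of CON 12 and at most 52.4 in the other cartilage libraries. The sixth in order did not pass the test (log2 fold change -2.72, adjusted p = 0.0752 from edgeR). The whole list of 1040 transcripts past the 8-fold test toward synovium took 0.227% of the counts of the CON 1 cartilage library. Among the cartilage libraries only that of CON 12 had a larger share, at 0.245%. This list was chosen with CON 1 in the fit. The transcripts named above as high in the cartilage of CON 1 did not pass the 8-fold test and are not in it. The list therefore cannot show whether the cartilage of CON 1 held more of the transcripts of synovium. With CON 1 and CON 11 both left out, 12174 transcripts differed, 4462 by more than 2-fold and 1480 by more than 8-fold.

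The concentration of the cartilage libraries was also measured in each library on its own, without any list. The 10 most abundant transcripts of a library held 32.9% ± 3.38 of the counts in cartilage and 18.1% ± 2.93 in synovium (SD, n = 12 knees), and the cartilage value was higher in 12 of 12 knees. The groups did not overlap, with 26.9% as the lowest value in cartilage and 23.3% as the highest in synovium. The 100 most abundant held 49.0% ± 3.43 against 31.3% ± 2.77. The first 50% of the counts was held by 124 ± 62 transcripts in cartilage (range 56 to 260) and by 753 ± 160 in synovium (range 429 to 937). CON 11 was the nearest to the other tissue in both, with 260 transcripts in cartilage and 429 in synovium. After every library had been thinned to 7483043 counts, 26917 ± 588 transcripts had a count in cartilage and 28426 ± 709 in synovium, lower in cartilage in 12 of 12 knees. For each of these measures p was 0.000488 in a two-sided exact permutation test that exchanged tissues within knees, the smallest value that 12 knees allow, and the value adjusted over the 6 measures was 0.000586. The study reported a lower mean RNA concentration and lower absorbance ratios for purity in CON cartilage than in CON synovium, with similar RNA integrity. Thinning evens the counts only. The part of RNA yield and purity in these measures was not tested and cannot be told apart from tissue.

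The sixth measure, the spread between knees, did not separate the tissues. The root mean square distance of a library from the mean of the others of its tissue was 1.00 ± 0.0753 on the log2 CPM scale in cartilage and 0.987 ± 0.122 in synovium, with cartilage higher in 6 of 12 knees (p = 0.748, exact permutation test). The distances within a tissue depend on each other and were not computed anew for each exchange, so this p-value is only a rough guide. The mean difference was 0.0131 with an SD of 0.140 over knees. The common dispersion that edgeR estimated within each tissue was 0.274 in cartilage and 0.269 in synovium.

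**Figure D2:**
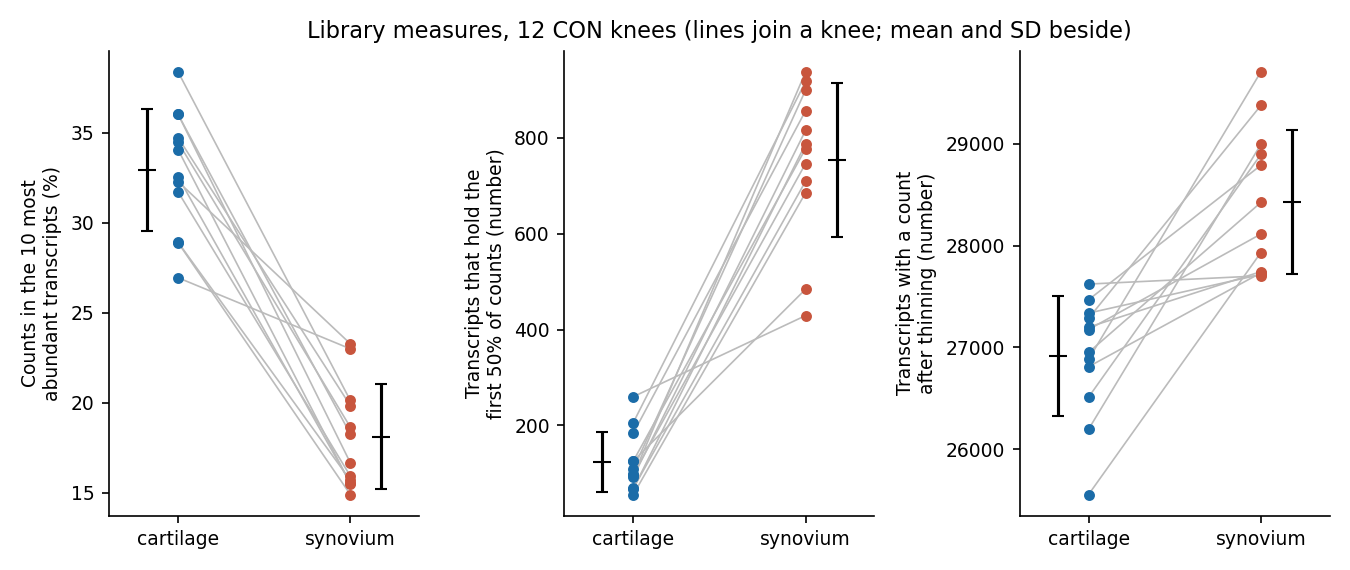
Measures of each CON library, with lines that join the 2 tissues of a knee and the mean with SD (n = 12) beside the points. The share in the 10 most abundant transcripts is higher in cartilage in every knee, and the numbers of transcripts that hold the first 50% of counts and that have a count after thinning are lower in every knee. The vertical axes do not start at 0.

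The length measure depended on the unit. Weighted by counts, the mean transcript length was 4253 ± 113 bases in cartilage and 4539 ± 93.8 in synovium, lower in cartilage in 12 of 12 knees (p = 0.000488, exact permutation test). Weighted by TPM, the difference turned to 130 bases longer in cartilage with an adjusted p of 0.00244 in the exact permutation test, and without the 10 most abundant transcripts it was 44.0 bases longer in cartilage with an adjusted p of 0.343. The length difference thus had no direction apart from the unit and the leading transcripts. The other concentration measures kept their direction. In TPM the 10 most abundant transcripts held 9.20 percentage points more in cartilage than in synovium, and without the 10 leading transcripts the next 10 held 3.89 points more.

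**Figure D3:**
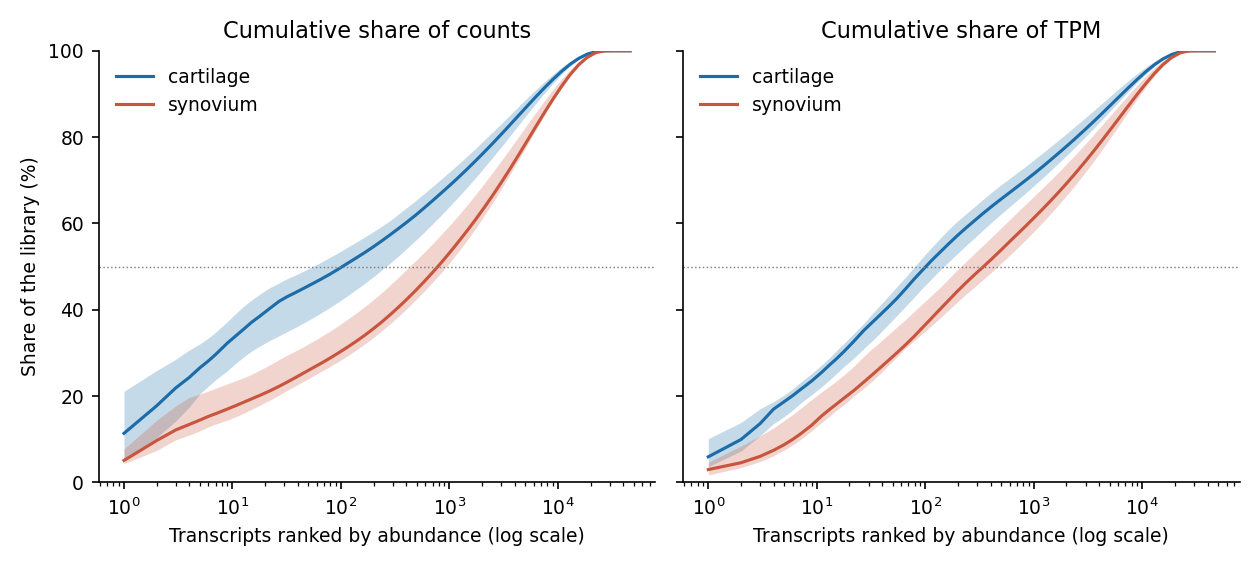
Cumulative share of each library held by its most abundant transcripts, in counts (left) and TPM (right), with the median of 12 libraries as a line and the lowest to the highest library as a band. The median cartilage curve lies above the median synovium curve at every rank shown up to where both approach 100%, and the gap is smaller in TPM.

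The overlap of the expressed transcripts fell as the level asked for rose to 100 TPM. At a mean of at least 1 TPM, 23136 transcripts were present in cartilage and 25836 in synovium, and the 21746 present in both made up 94.0% of the first and 84.2% of the second. At a mean of at least 100 TPM, 576 were shared by lists of 860 and 1082, or 67.0% and 53.2%. The fall did not go on, since at a mean of at least 1000 TPM 79 were shared by lists of 112 and 111, or 70.5% and 71.2%. Among the 100 most abundant transcripts 70 were shared by TPM and 45 by counts, and among the 10 most abundant 2 were shared by TPM and 5 by counts. The 10 leading transcripts of cartilage took 22.7% of its TPM and 5.10% of that of synovium, and 9 of them were called higher in cartilage, 6 by the 8-fold test. The 10 leading transcripts of synovium took 14.1% of its TPM and 10.6% of that of cartilage. Of these, 6 were called higher in synovium, 1 higher in cartilage and none passed the 8-fold test. For comparison, 86.7% of the 60 tested transcripts at 1000 CPM or more were called, 30 higher in cartilage and 22 higher in synovium. The 8-fold test was passed by 36.7% of the 60, 19 toward cartilage and 3 toward synovium.

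A further set was present in every library of 1 tissue and at most at traces in the other. Of the 17290 transcripts with at least 10 counts in all 12 cartilage libraries, 55 had at most 3 counts in every synovium library, and 29 of these had none at all. Of the 18246 with at least 10 counts in all 12 synovium libraries, 175 had at most 3 in every cartilage library and 46 had none. The 55 took 1.83% of cartilage TPM, with a median level of 12.1 TPM and a highest mean of 8601 TPM. The 175 took 0.318% of synovium TPM, with a median of 8.71 and a highest mean of 344 TPM. Synovium thus had more transcripts of this kind, and those of cartilage took the larger share of TPM. A large part of that share came from the single transcript at 8601 TPM, and the median levels lay closer together. A count of 0 shows only that a transcript was not detectable at these depths.

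The share of transcripts called rose with abundance. It was 24.8% of 444 transcripts under 1 CPM, 40.0% of 11600 from 1 to 10 CPM, 60.1% of 10862 from 10 to 100 CPM, 79.2% of 1157 from 100 to 1000 CPM and 86.7% of 60 at 1000 CPM or more. The median standard error on the log2 scale fell from 0.56 under 1 CPM to 0.12 from 100 to 1000 CPM and was 0.22 at 1000 CPM or more, and the part of precision in this gradient was not tested. The size of the difference did not follow the same course, with a median absolute log2 fold change of 0.67 from 1 to 10 CPM, 0.46 from 10 to 100 CPM and 0.76 from 100 to 1000 CPM. It was 1.55 among the 60 most abundant.

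The direction of the large differences turned along the same axis. From 1 to 10 CPM, 151 transcripts were past the 8-fold test in cartilage and 536 in synovium. From 10 to 100 CPM there were 187 and 419. From 100 to 1000 CPM the numbers were close, at 80 and 75, and at 1000 CPM or more there were 19 in cartilage and 3 in synovium. By transcript length there was little change. Over 4 length classes of nearly equal size, the share called was 47.9% in the shortest and 52.7% in the longest. The median length was 3249 bases for transcripts called higher in cartilage, 3289 for those higher in synovium and 3091 for those not called.

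**Figure D4:**
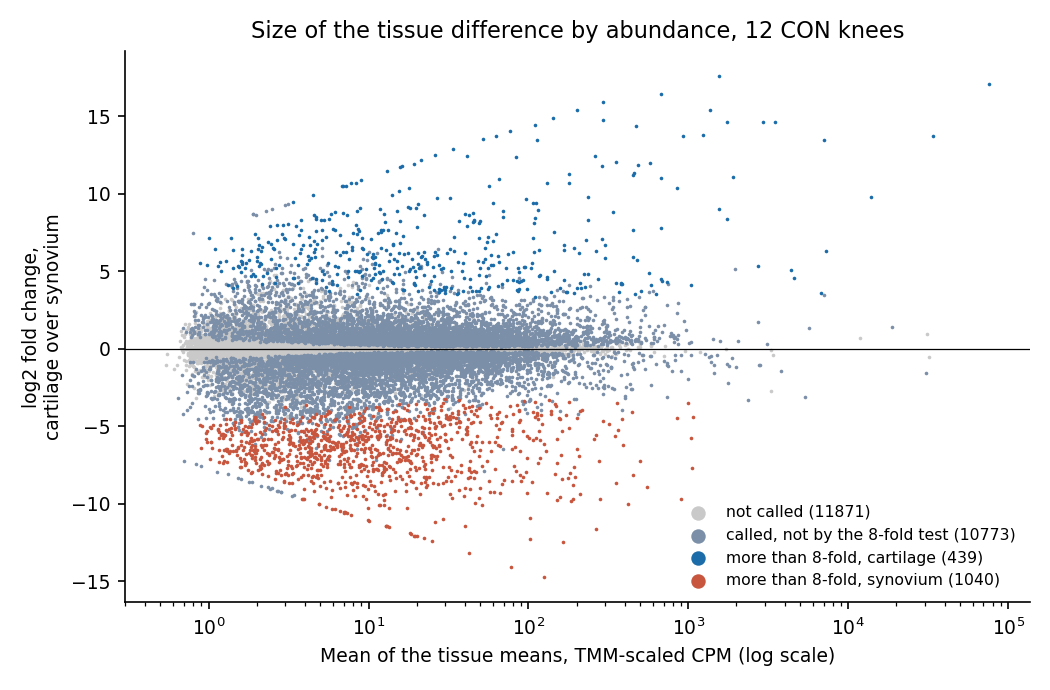
Log2 fold change (cartilage over synovium) of the 24123 transcripts tested in the 12 CON knees against the mean of the tissue means in TMM-scaled CPM (log axis). Points past the 8-fold test are blue for cartilage (439) and red for synovium (1040), and the outer diagonal edges are transcripts at or near 0 in a tissue, whose fold is set by the prior count. At 1000 CPM or more, blue points outnumber red ones by 19 to 3.

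Some transcripts were close to even. For 5101 transcripts (21.1% of those tested), the 95% interval of the log2 fold change lay between -0.5 and 0.5, and 263 of these were among the 1217 with at least 100 CPM. The interval is approximate. It used the normal distribution without the degrees of freedom of the test, so it may be too narrow and the number of even transcripts too high. The test still called 758 of the 5101. They took 13.5% of cartilage counts and 19.8% of synovium counts, which again shows that evenness is meant on the TMM scale. For the other transcripts that were not called, the data do not show that the tissues are alike.

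A set of 4 transcripts is named, in each direction the one with the largest difference in mean TMM-scaled CPM and the one with the largest log2 fold change. No file at hand held their sequences. ENSSSCT00000047570.3, of 4883 bases, was the leading transcript of the cartilage side and made up 27.8% of it. In the cartilage of CON 1 to CON 12 its levels were 48381, 90437, 76033, 33316, 22571, 63744, 36183, 52337, 42039, 101458, 21338 and 79917 TPM. It held between 4.82% and 21.1% of all counts of a cartilage library, with a median of 11.4%, and was lowest in CON 11. In synovium its counts ran from 0 in CON 3 to 26 in CON 9 and CON 12, and its level was never above 0.987 TPM. The tissues were therefore apart by more than 4 orders of magnitude in every knee, while the knees differed among themselves within cartilage. The log2 fold change was 17.04 with an SE of 0.71 and an adjusted p of 5.77e-10 from edgeR. It ranked first of all transcripts in cartilage by mean TPM and 28742 in synovium.

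ENSSSCT00000009545.5, of 982 bases, was named by the largest fitted log2 fold change toward cartilage, an order that also depends on the prior count. Its counts in the cartilage of CON 1 to CON 12 were 70529, 55678, 31884, 34878, 38606, 61640, 7520, 59907, 20902, 30808, 5637 and 37575. The lowest cartilage values were in CON 7 and CON 11, and the highest was in CON 1. In synovium it had 1 count, in CON 12, and 0 counts in the other 11 libraries. Over all libraries the ratio of its levels was 543481, with an exact 95% interval from 97544 to 21466389 that covers counting error only and reflects the single count. The adjusted p was 2.74e-13 from edgeR. Its mean level of 8601 TPM ranked 14 in cartilage and made it the highest of the 55 transcripts that were at most at traces in synovium.

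ENSSSCT00000089736.2, of 8349 bases, led the synovium side and was abundant in both tissues. In the synovium of CON 1 to CON 12 it lay at 7513, 11164, 12343, 9276, 16524, 12490, 11039, 13613, 13685, 17040, 11057 and 10380 TPM. In cartilage it lay at 3372, 2363, 3602, 3874, 5775, 2030, 3156, 2648, 3374, 2721, 4580 and 2388 TPM. The lowest synovium value was above the highest cartilage value, and the synovium value was higher in 12 of 12 knees. The log2 fold change was -1.55 with an SE of 0.20 and an adjusted p of 1.86e-05 from edgeR, and by mean TPM it ranked 6 in synovium and 35 in cartilage. The single first transcripts of the 2 sides thus differed in kind, since ENSSSCT00000047570.3 was near absent from synovium and this one was shared. Both kinds occurred on each side. The ninth of the cartilage side had a median of 25953 CPM in synovium, and the tenth of the synovium side had a median of 8.35 CPM in cartilage.

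ENSSSCT00000084217.1, of 6393 bases, was named by the largest fitted log2 fold change toward synovium, an order that rests on the prior count because cartilage was at 0. Its counts in the synovium of CON 1 to CON 12 were 2189, 2838, 3634, 3136, 3116, 4139, 7822, 2656, 3556, 4586, 2265 and 3459. All 12 cartilage libraries had 0 counts. Against a limit of 3 counts over the 12 cartilage libraries it was at least 12125-fold higher in synovium, with an adjusted p of 0.000677 from edgeR. Its mean level was 109 TPM, so that it ranked 991 in synovium.

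**Figure D5:**
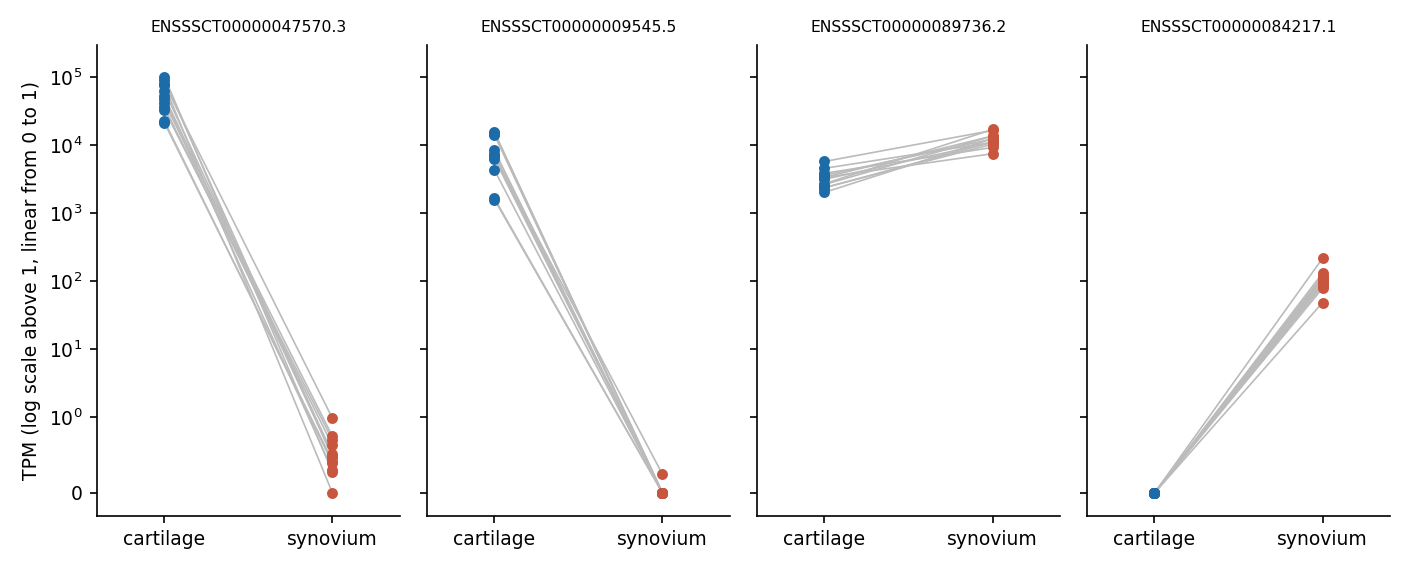
Level in TPM of the 4 named transcripts in the 12 CON knees (log scale above 1, linear from 0 to 1), with lines that join the tissues of a knee. The first and second are higher in cartilage and at or near 0 in synovium, the third is present in both tissues at levels that do not overlap, and the fourth is at 0 in all 12 cartilage libraries.

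Whether the tissue difference of CON knees was also that of operated knees was tested as an interaction over the 47 knees of the study's sample list, 12 CON and 35 operated. CON knees are the contralateral knees of operated animals, so both sets hold knees of the same animals, and the fit blocked by knee and not by animal. Of 30447 transcripts tested in that fit, 2344 (7.70%) had a different tissue difference in the 2 sets of knees at an adjusted p-value under 0.05 in edgeR with the knee as a block. Of these, 1115 were higher in cartilage relative to synovium in operated knees and 1229 lower. Directions were compared between the CON and the operated knees. Over all 24123 transcripts tested in both fits, 83.2% had the same sign in both, and over those not called in CON knees 69.1% did. Of the transcripts called higher in cartilage in CON knees, 97.7% had the same sign in operated knees, and of those higher in synovium 95.9% did. In both lists past the 8-fold test, 439 and 1040 transcripts, all had the same sign.

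The sizes were somewhat smaller in operated knees. In transcripts called higher in cartilage, the median log2 fold change was 0.93 in CON and 0.82 in operated knees, and in those called higher in synovium -1.24 and -1.10. In the lists past the 8-fold test the medians were 6.13 and 5.51 for cartilage, and -6.36 and -5.23 for synovium. These lists were chosen on the CON values, which favours larger values there, so the smaller medians are a description only. In the 8-fold lists, 93 of 439 (21.2%) and 83 of 1040 (7.98%) transcripts passed the interaction test, against 9.46% of the transcripts tested in both fits, and 84 and 80 of these had the smaller difference in operated knees.

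The 4 named transcripts stayed on the same side. ENSSSCT00000047570.3 had medians of 57839, 68622 and 77057 TPM in the cartilage of ACLT, RECON and REPAIR knees, and at most 1.77 TPM in any of their synovium libraries. ENSSSCT00000009545.5 had medians of 5535, 5580 and 3429 TPM in cartilage and at most 0.252 TPM in synovium. ENSSSCT00000084217.1 was at 0 in every operated cartilage library and had medians of 118, 107 and 71.5 TPM in synovium. ENSSSCT00000089736.2 had medians of 10130, 6335 and 10135 TPM in synovium and of 3342, 3653 and 3253 TPM in cartilage, and there the lowest synovium values of 2653 TPM in ACLT, 2717 TPM in RECON and 4208 TPM in REPAIR all lay inside the range of cartilage of the same group. None of the 4 passed the interaction test, with adjusted p-values from 0.242 to 1 from edgeR.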

How the data were processed

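The authors quantified paired-end reads with Salmon 1.8.0 against Sscrofa11.1 transcripts and deposited, for each library, estimated counts without normalization, TPM (relative abundance corrected for effective length) and lengths. Salmon divides reads among similar transcripts, so isoforms and paralogs share an uncertainty that was not measured here. Estimated counts were rounded to whole numbers. Of 96 libraries, the 24 CON libraries entered the main fit (edgeR 4.0.16, R 4.3.3): TMM, filterByExpr with a minimum count of 10, the knee as a block, glmQLFTest, and glmTreat against 2-fold and 8-fold, at an adjusted p-value under 0.05 (Benjamini-Hochberg). The members, lists and tests were chosen with earlier results of these data known. The transcripts named were, in each direction, the one with the largest difference in mean CPM and the one with the largest log2 fold change among those with at least 10 counts in every library of the higher tissue. Library measures were compared by exact permutation within knees (scipy 1.17.1), adjusted over 6 measures. The interaction fit held 47 knees. Knee ACLT 12 is not in the study's sample list and entered only an alternative.

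In the study's sample list, cartilage and synovium of a number belong to 1 knee, which is the basis of the pairing. Deviations of log2 CPM around the tissue means correlated by 0.0273 on average between tissues of a knee (range -0.0156 to 0.0970) and by -0.00248 between different knees. No 2 libraries of a tissue agreed within sampling noise (lowest chi-square per degree of freedom 21.7). Intervals and limits from counts cover counting error only. Standard errors of log2 fold changes were derived from the fitted value and the F statistic of the quasi-likelihood test. On simulated counts for this comparison, with 23134 transcripts tested, 73 of 98 transcripts changed 4-fold and 88 of 95 changed 16-fold were recovered, and 6 unchanged transcripts were called. The 8-fold test recovered 58 of the 95. The simulation planted changes in few transcripts, in both directions alike, and gave all others the same mean in both tissues. It held no knee effect and no shift of composition. It therefore cannot show how many false calls arise where the tissue difference is broad and its direction depends on the scaling.

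The alternatives were DESeq2 size factors, library totals, a filter for non-zero counts in at least 2 libraries, no block, an offset for effective length, DESeq2 1.42.0, limma 3.58.1 on log2 CPM differences (prior count 2), each knee left out, all 47 knees in 1 fit, TPM, and removal of the 10 leading transcripts. Thinning to 7483043 counts and leaving out CON 1 and CON 11 together were chosen after seeing the data. Homogenisation followed tissue, and all libraries were pooled and sequenced together per the study's methods.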

Additional observations from a re-analysis of the deposited data

Results flagged for a closer look

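The tissue difference itself differed between CON and operated knees for 2344 transcripts, by the interaction of tissue with surgery in edgeR with the knee as a block. Of the transcripts tested in both fits, 9.46% (2281 of 24123) were of this kind. The share was 14.9% (870 of 5851) among those called higher in cartilage in CON knees, 10.4% (664 of 6401) among those called higher in synovium and 6.29% (747 of 11871) among the others. In the first group, 733 shifted toward synovium in operated knees and 137 toward cartilage. In the second group, 516 shifted toward cartilage and 148 toward synovium. These groups were formed on CON libraries that also entered the interaction, so the split is a description without a test.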

How the results depend on the processing

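The counts of transcripts that differed in CON knees stayed within 1.5 times the values given under every alternative run. They ran from 11441 to 15094 for any difference, from 4064 to 5641 for more than 2-fold and from 1315 to 1921 for more than 8-fold. Without the knee as a replicate block, 12570, 4367 and 1318 transcripts passed, and 2552 passed the interaction, so the pairing changed no count by over 1.5 times. With each knee left out in turn the counts ran from 11594 to 12321, from 4280 to 4503 and from 1413 to 1501. The split by direction moved with library totals in place of TMM, with 2600 transcripts called higher in cartilage and 12494 in synovium, and 1080 and 4225 for more than 2-fold, where the main values were 1662 and 2785. DESeq2 called 13695 transcripts and limma 12999. The interaction count ran from 1960 with the filter for non-zero counts to 2552 without the block. The difference in weighted transcript length, -286 bases with counts, was 130 bases with TPM and 44.0 bases without the 10 leading transcripts. The distance between knees, with a tissue difference of 0.0131, ran from -0.00818 to 0.0386 with single knees left out, and none of these passed the test. The other measures kept their direction and their side of the threshold in all alternatives. So did the log2 fold changes of the 4 named transcripts, which ran from 16.51 to 17.20 for ENSSSCT00000047570.3 and from -2.08 to -1.48 for ENSSSCT00000089736.2. The fitted values of the others, which are near or at 0 in a tissue, moved more, from 13.99 to 18.30 for ENSSSCT00000009545.5 and from -15.02 to -10.65 for ENSSSCT00000084217.1. The depth limits what a 0 means, and transcripts under 1 CPM had a median standard error of 0.56.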
